A study of Homo sapiens with 12 samples.

Results

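The respiratory chain genes were taken from the gene tables by symbol. They are the protein-coding genes whose names begin with MT-ND, MT-CO, MT-ATP or MT-CYB, NDUFA, NDUFB, NDUFC, NDUFS or NDUFV with a digit, UQCR, COX4 to COX8 or ATP5, plus SDHA, SDHB, SDHC and SDHD. The rule gave 91 of the 14556 genes in the tables of the authors' comparisons, 13 encoded in mitochondrial DNA and 78 in nuclear DNA. Another 4 names fitted the rule under another biotype and stayed out, namely the pseudogenes UQCRFS1P1, ATP5G1P4 and NDUFV2P1 and the antisense gene NDUFB2-AS1. Of the 78 nuclear genes, 36 belong to complex I, 4 to complex II, 8 to complex III, 12 to complex IV (NDUFA4 counted there) and 18 to complex V or are named for it. All 91 passed the filter on low values.

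The cells were hTERT-RPE1, a human retinal pigment epithelial line immortalized with telomerase, labelled wild type and parental. Cells were given siRNA at 20 nM, either a control that targets no gene of interest (siNeg), one that targets CENPF, one that targets FOXM1, or the CENPF and FOXM1 siRNAs together, and polyA RNA was collected 48 hours later. CENPF encodes a kinetochore protein and FOXM1 a transcription factor of mitotic genes, and the series asks how CENPF contributes to transcription controlled by FOXM1. Each of the 4 groups had 3 libraries, numbered 1 to 3 in the labels. Those labels do not say that the libraries came from separate cultures, so the p-values reflect just the variation among these samples, which may be technical. The siRNA sequences, whether each siRNA was a pool, how the dose was split when both were given, and the strand setting of the counting were not given in the sources used here.

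Respiratory chain complexes sit in the inner mitochondrial membrane. Complexes I, III and IV pump protons as electrons pass from NADH to oxygen, complex II feeds in electrons from succinate, and complex V, the ATP synthase, uses the proton gradient to make ATP. Complexes I, III, IV and V mix subunits made from mitochondrial DNA with subunits made from nuclear genes, so the chain draws on both genomes, while complex II is nuclear alone. Mitochondrial DNA is transcribed as long transcripts from both strands, and most mRNAs are released when the transfer RNAs between them are cut out. A few stay joined: the reading frames of MT-ATP8 and MT-ATP6 overlap on a single mRNA, as do those of MT-ND4L and MT-ND4.

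Both joined mRNAs matter for the counts below, since a read in the shared bases belongs to both genes. The reference sequence around each overlap (plus strand, hg38 mitochondrial genome, 5′ to 3′) has the bases that both annotated genes cover in capitals.
MT-ATP8 and MT-ATP6, chrM:8513-8586: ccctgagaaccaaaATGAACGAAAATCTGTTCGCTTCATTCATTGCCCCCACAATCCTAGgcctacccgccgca
MT-ND4L and MT-ND4, chrM:10707-10819: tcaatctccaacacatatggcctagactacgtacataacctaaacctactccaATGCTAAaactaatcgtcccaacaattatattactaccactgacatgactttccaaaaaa
The first overlap spans 46 bases (8527 to 8572), the start of MT-ATP6 and the end of MT-ATP8, whose annotated length is 207 bases. The second spans 7 bases (10760 to 10766). How the authors' counting assigned reads in these overlaps is not given, so the values of MT-ATP8 are less certain than those of the other mitochondrial genes. MT-ND6 (chrM:14149-14673) is the single mitochondrial coding gene on the minus strand, directly after the end of MT-ND5 at 14148. Without a known strand setting, reads from its mRNA and from opposite-strand RNA over the same bases cannot be told apart.

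Reads counted in genes ranged from 13671250 to 35411230 per library, with the libraries numbered 3 of siNeg and siCENPF the deepest. Mitochondrial mRNAs took 1.73% to 2.54% of these reads and the 78 nuclear genes 0.514% to 0.646%. The targeted mRNAs were lower wherever their siRNA was given: CENPF fell from 7797, 9537 and 7993 normalized counts (siNeg libraries 1 to 3) to 893, 827 and 1017 under siCENPF, and FOXM1 from 4186, 4438 and 4763 to 732, 491 and 816 under siFOXM1. With both siRNAs CENPF had 1360, 1360 and 1284 and FOXM1 729, 816 and 822. On deposited FPKM, 3 of 4 epithelial markers reached 0.5 in at least 1 library, while RPE65 and TYR, defining genes of differentiated retinal pigment epithelium, were listed at 0 in all 12. Of 10 such markers 3 reached 0.5, as did 0 of 3 endothelial, 0 of 4 muscle, 1 of 3 blood and 2 of 4 neural markers.

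Mitochondrial mRNAs stood far above nuclear ones. Levels between genes are given as RPKM, the reads per kilobase of the principal annotated transcript scaled to library size, as means over the 12 libraries. The 13 mitochondrial genes had a median level of 1450 and the 78 nuclear genes one of 45.4, a ratio of 31.9. Per kilobase of coding sequence the ratio was 12.3, and on the deposited FPKM it was 144. The FPKM divide by a width that matches the summed exons of all annotated transcripts of a gene (2.22 times the merged exon length at the median nuclear member, 1 time at the mitochondrial ones), so they understate genes with many transcripts. The size of the gap therefore depends on the length used, and its direction did not change over these 3 scales.

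**Figure D1:**
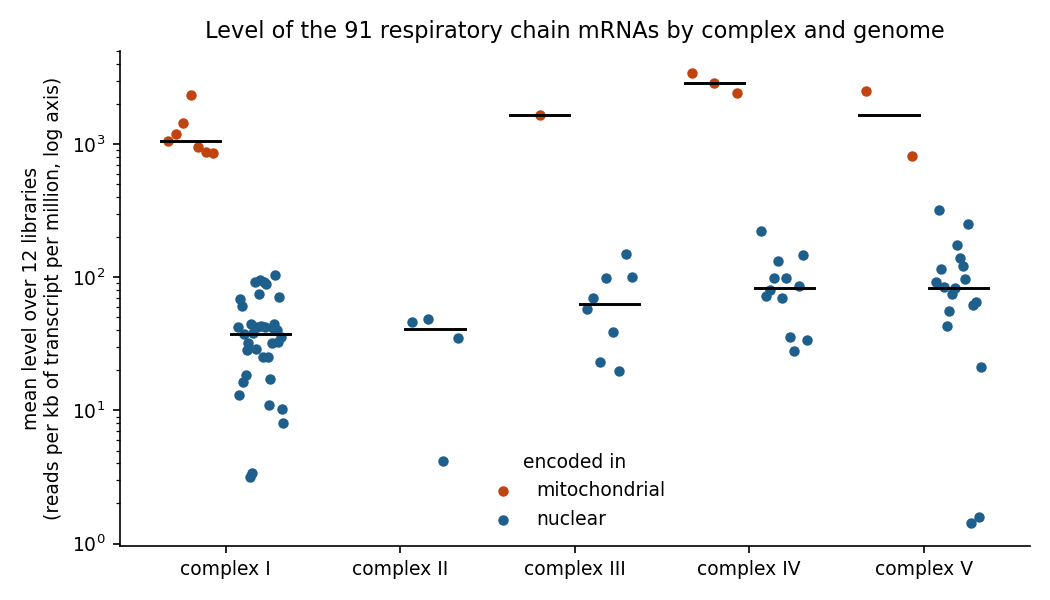
Mean level of each of the 91 mRNAs over 12 libraries (RPKM on the principal transcript, log axis) by complex, mitochondrial genes in orange and nuclear genes in blue, with a black line at each median. The mitochondrial medians lie between 1061 (complex I) and 2866 (complex IV), the nuclear ones between 37.8 (complex I) and 83.7 (complex V).

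Among the mitochondrial genes the cytochrome c oxidase subunits led on this scale. MT-CO1, the catalytic subunit of complex IV, was highest at 3422 ± 490 (SD, n = 12 libraries), followed by MT-CO2 at 2866 ± 251, MT-ATP6 at 2532 ± 183 and MT-CO3 at 2445 ± 218. The ranges of MT-CO1 (2783 to 4176) and MT-CO2 (2320 to 3233) overlap, and in siCENPF 2 MT-CO2 was the higher. MT-ATP6, MT-CO3 and MT-ND4 (2347 ± 341) are neighbours whose ranges over libraries overlap. At the low end MT-ND5 (870 ± 140), MT-ND6 (865 ± 112) and MT-ATP8 (811 ± 114) could likewise not be ordered within their spread. MT-ATP8 and MT-ATP6 share an mRNA yet stood at 811 and 2532, and MT-ND4L and MT-ND4, which also share one, at 948 and 2347. In both joined mRNAs the short reading frame carried the lower level. Both frames lie on the same mRNA, so this is a difference in reads counted per kilobase. What the counting of reads in the shared bases adds to it was not tested.

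The nuclear subunits ranged from 1.42 to 323. ATP5B, the catalytic beta subunit of ATP synthase, was highest on this scale at 323 ± 11.8 (SD, n = 12), and its lowest library (301) stood above the highest of ATP5J2, the next gene (297). COX4I1 led complex IV at 224, UQCRH, the hinge protein, complex III at 150, NDUFS5 complex I at 104 and SDHB, the iron-sulfur subunit, complex II at 49.0. These leaders depend on the length: per kilobase of coding sequence NDUFS5 still led complex I, but COX7C led complex IV (515), UQCRB complex III (387), SDHC complex II (111) and ATP5E complex V (525, against 374 for ATP5B). ATP5J2-PTCD1 was lowest at 1.42, but 93.8% of its exon bases belong to other genes, chiefly PTCD1, so its reads cannot be credited to the ATP synthase. In complex I NDUFA7 was lowest (3.19), in complex III UQCRFS1 (19.8) and in complex IV COX7B (27.9). NDUFA7 shares 33.5% of its exon bases with other genes, most with AC010323.1 on the same strand, so its level is uncertain.
By deposited FPKM, the lowest members were UQCRC2 of complex III (8.34), COX6C of complex IV (6.32) and ATP5S of complex V (0.804), and the highest of complex IV was COX8A (148). The order within complex II also rested on the length: SDHC was lowest per kilobase of transcript (4.15, for an annotated principal length of 13566 bases), while SDHA, the flavoprotein, was lowest per kilobase of coding sequence (55.2, against 111 for SDHC).

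Several nuclear subunits have isoforms used in other tissues, and these were at or near 0. COX4I2, the lung form of COX4, was listed at 0 FPKM in 10 of 12 libraries with a highest value of 0.0570, while COX4I1 ran from 8.09 to 10.7. COX6A2, the heart and muscle form, was at 0 in all 12, against 26.4 to 38.7 for COX6A1. COX6B2, the testis form, reached at most 0.0285, against 31.8 to 42.7 for COX6B1. COX7A1, another muscle form, reached at most 0.115, while COX7A2 ran from 15.8 to 21.1 and COX7A2L, a supercomplex assembly factor named like a subunit, from 6.73 to 9.46. NDUFA4L2, a paralog of NDUFA4, reached at most 0.0708, against 13.8 to 20.9 for NDUFA4. The 3 genes that encode the same c-subunit of ATP synthase were all present, ATP5G3 at 14.3 to 18.7, ATP5G2 at 6.60 to 9.33 and ATP5G1 at 5.76 to 7.02, and near-identical coding bases could let reads be split among them.

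No respiratory chain mRNA passed the test with either siRNA or with both unless the library number was kept as a block, which gave calls for 3 mitochondrial genes that are described further on. Differences between groups are in log2(normalized count + 1), tested with limma over all 14857 genes with Benjamini-Hochberg adjustment, and a gene is called when its adjusted p is below 0.05. With siCENPF 0 of 91 were called, where 0.337% of all genes were. With siFOXM1 it was 0 of 91 (0.66% of all genes), and with both siRNAs 0 of 91 (0.458%). At an unadjusted p below 0.05 there were 2, 1 and 2 members in these comparisons. Both siRNAs against siCENPF alone gave 0 called members (0.0808% of all genes) and 1 at the unadjusted p, against siFOXM1 alone 0 (0.00673%) and 0, and the interaction, which asks whether the effect of both differs from the sum of the single effects, 0 (0% of all genes) and 1. The edgeR and DESeq2 tests on recovered reads gave 0 called members in each of the 6 comparisons. The authors' deposited table of each comparison against siNeg called 0 of 91 members, with smallest adjusted p-values of 0.999885 for siCENPF, 0.851632 for siFOXM1 and 0.999252 for both.

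As a list, the mitochondrial genes lay a little above siNeg. With siCENPF their median log2 difference was 0.11 with 13 of 13 above 0, against 0.06 with 59 of 78 above 0 for the nuclear genes and -0.000588 for all genes tested. With siFOXM1 the medians were 0.13 (13 of 13), -0.00211 (38 of 78) and -0.000647. With both siRNAs they were 0.07 (11 of 13), 0.05 (48 of 78) and -0.00256. These 3 comparisons share the siNeg libraries, so a low siNeg library raises all of them together. The siNeg library numbered 3 had the lowest share of mitochondrial mRNA of the 12, 1.73%. Without it, the mitochondrial median minus the nuclear one turned from 0.048 to -0.069 with siCENPF and from 0.14 to -0.00496 with siFOXM1. Without siCENPF 1 the siCENPF value was -0.082, and without siCENPF 2 it was 0.34.

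Within each number the picture was uneven. With siCENPF the mitochondrial median differed from the siNeg library of the same number by 0.18 in number 1, -0.071 in number 2 and 0.29 in number 3, while the nuclear median differed by -0.027, 0.28 and -0.089. With siFOXM1 the mitochondrial differences were 0.071, 0.016 and 0.29 and the nuclear ones -0.029, 0.090 and -0.050. With both siRNAs they were 0.00298, 0.00684 and 0.21, and 0.058, 0.17 and -0.088. The mitochondrial median was thus higher in number 3 under every siRNA, and in number 2 with siCENPF it was lower.

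**Figure D2:**
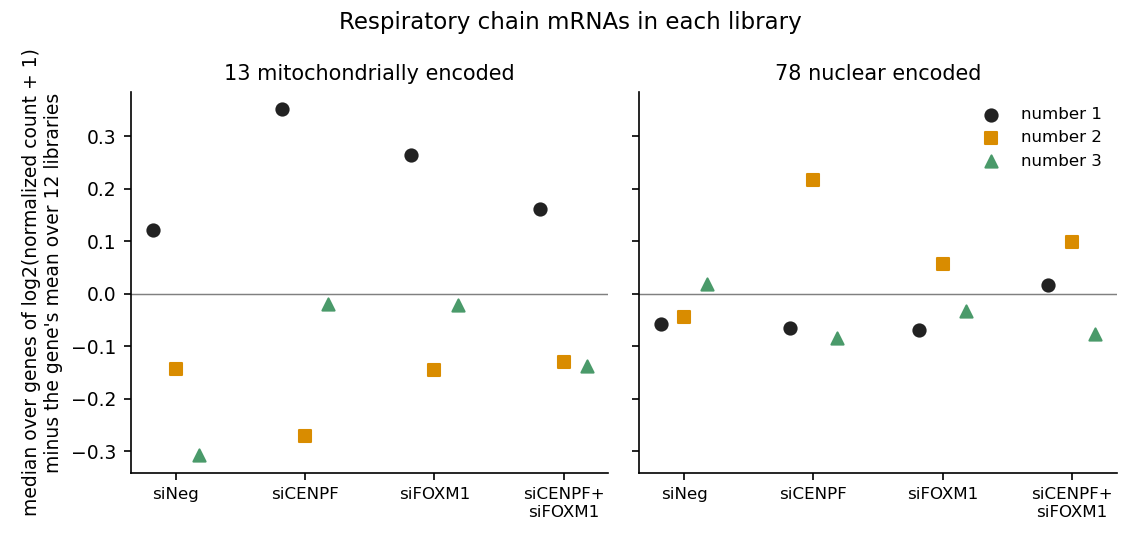
Median over the 13 mitochondrial genes (left) and the 78 nuclear genes (right) of log2(normalized count + 1) minus the gene's mean over the 12 libraries; each point is a library, placed by siRNA group and marked by its number. In each group number 1 has the highest mitochondrial median (0.12 to 0.35), and in the 3 groups given a targeting siRNA number 2 has the highest nuclear median (0.06 to 0.22).

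The fit that adds the library number as a term (a block) called 3 mitochondrial genes. Without it, 0 mitochondrial genes reached an unadjusted p below 0.05 in the comparisons against siNeg, and the 2, 1 and 2 members that did were nuclear. With this block 2 of 91 members rose with siCENPF, where 4.52% of all genes were called, 3 rose with siFOXM1 (8.72%) and 0 changed with both siRNAs (7.9%). Over the 91 members each of these shares was below that of all genes, but every call was mitochondrial. Of the 13 mitochondrial genes, 2 (15.4%) were called with siCENPF and 3 (23.1%) with siFOXM1, shares above those of all genes. The difference in share was not tested. Both siRNAs against siCENPF gave 0 members (1.46%), against siFOXM1 0 (0.296%), and the interaction 1 (0.841%). The members called were MT-ATP8, MT-ND6 and MT-CO2.

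MT-ATP8 (ENSG00000228253, chrM:8366-8572, plus strand, exonic and without introns) encodes a small membrane subunit of ATP synthase. The siNeg libraries 1 to 3 held 3304, 2744 and 2460 normalized counts of it and the siCENPF libraries 3967, 3231 and 3000. The siFOXM1 libraries held 3638, 3601 and 3278, and those given both siRNAs 3665, 3147 and 2454. Each siCENPF and siFOXM1 library stood above the siNeg library of its number, but both groups overlapped with siNeg. With both siRNAs, libraries 1 and 2 were above siNeg and library 3 was level with it. The difference was 0.26 with siCENPF (SE 0.15 without and 0.062 with the block; limma adjusted p = 1.00 and 0.0113) and 0.32 with siFOXM1 (adjusted p = 0.656 and 0.00125). The interaction was -0.46 (adjusted p = 1.00 without and 0.00585 with the block): both siRNAs together gave less than the sum of the single differences. The authors' deposited tables give 0.26, 0.31 and 0.12 for siCENPF, siFOXM1 and both. With the block, the siFOXM1 call held whichever of the 12 libraries was left out. The siCENPF call was lost without siNeg 2 (adjusted p = 0.0560), siCENPF 1 (0.0670) or siCENPF 3 (0.0680), and the interaction without siFOXM1 2 (0.0501) or siFOXM1 3 (0.0606).

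MT-ATP6, on the same mRNA, did not pass in any of these comparisons. Its counts were 33713, 34900 and 28151 in siNeg and 37558, 33217 and 32922 under siCENPF. They were 34808, 32734 and 31430 under siFOXM1 and 32613, 33899 and 29015 under both. Its library 2 was lower than siNeg 2 under each siRNA, whereas MT-ATP8 was higher there.

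MT-ND6 (ENSG00000198695), the complex I subunit of the opposite strand, had 8437, 7360 and 7510 counts in siNeg and 10113, 7325 and 10183 under siCENPF. It had 10158, 7440 and 9615 under siFOXM1 and 9476, 7395 and 9137 under both. Numbers 1 and 3 were higher under each siRNA, and number 2 hardly moved in any group. The differences were 0.23 with siCENPF and 0.21 with siFOXM1 (limma with the block, adjusted p = 0.0188 and 0.0209; without it 1.00 and 0.835). Leaving out siNeg 1 or siNeg 3 ended both calls (adjusted p = 0.120 and 0.169 with siCENPF, 0.119 and 0.224 with siFOXM1), as did leaving out number 1 or 3 of the siRNA group itself.

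MT-CO2 (ENSG00000198712, chrM:7586-8269), which carries the copper centre that accepts electrons from cytochrome c, had 40496, 35229 and 30088 counts in siNeg and 42495, 38029 and 35480 under siCENPF. It had 42876, 37021 and 36718 under siFOXM1 and 40579, 36316 and 33878 under both. Every siRNA library stood above siNeg of its number, while the groups overlapped. The difference with siFOXM1 was 0.15 (limma with the block, adjusted p = 0.0457), and edgeR with the block put it at 0.0633. The difference with siCENPF was 0.14 (0.0871 with the block). The siFOXM1 call was lost in 8 of the 12 fits with the block that leave out a library.

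**Figure D3:**
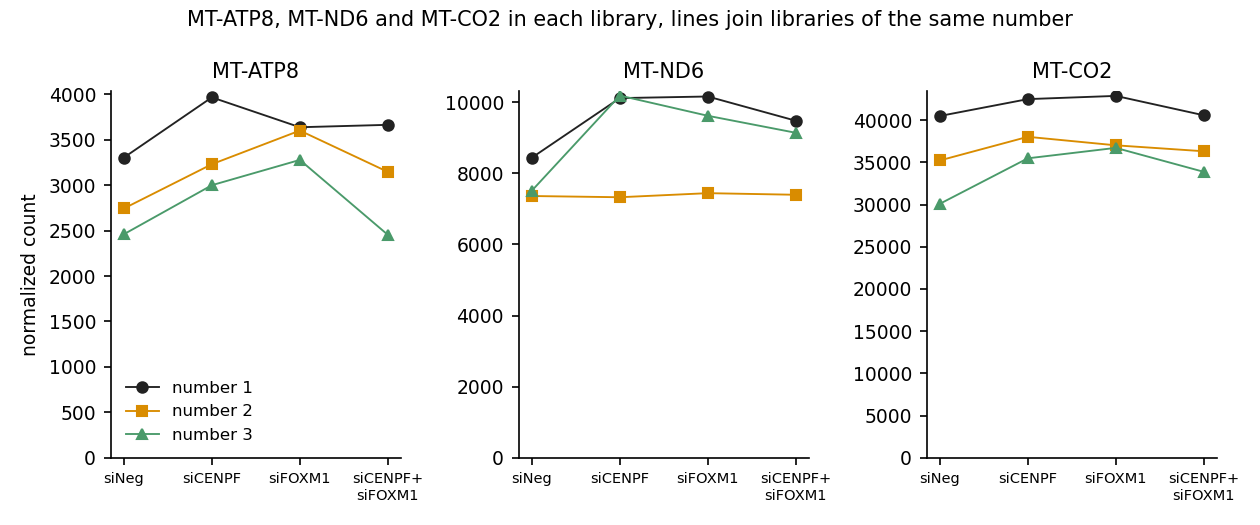
Normalized counts of MT-ATP8, MT-ND6 and MT-CO2 in the 12 libraries (axes from 0), with lines joining libraries of the same number across the siRNA groups. Number 1 is highest in siNeg for each of the 3 genes, and MT-ND6 stays between 7325 and 7440 in all 4 libraries of number 2.

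No nuclear member passed, with or without the block. With siCENPF the largest differences were 0.27 for NDUFA1, an accessory subunit of complex I (adjusted p = 0.980, and 0.0504 with the block), and -0.18 for SDHC, a membrane anchor of complex II (0.820). SDHC had 1170, 1184 and 1101 normalized counts in siNeg and 999, 1077 and 973 under siCENPF; the groups did not overlap, but with the block its adjusted p was 0.105. ATP5SL (-0.18) and NDUFA9 (-0.13) followed. With siFOXM1 the lowest were NDUFC2 (-0.21), COX7A2L (-0.15) and NDUFA9 (-0.15), and MT-ND5 at 0.22 (adjusted p = 0.894) stood beside MT-ATP8 and MT-ND6 at the top.
With both siRNAs the highest were NDUFA1 (0.25), NDUFB1 (0.23) and NDUFC1 (0.22), and the lowest ATP5J2-PTCD1 (-0.22), NDUFA7 (-0.19) and NDUFC2 (-0.18), with adjusted p-values of 0.774 to 0.968. NDUFA7 rested on 21.6 to 54.2 normalized counts per library. NDUFA1 shares 44.5% of its exon bases with RNF113A on the opposite strand, so its reads are uncertain without the strand setting. In all, 11 members share more than 25% of their exon bases with other genes.

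Between both siRNAs and either single siRNA, named values stayed small. NDUFB7, NDUFS4 and UQCR11 were highest against siCENPF and NDUFB1, NDUFS4 and NDUFA5 against siFOXM1; ATP5J2-PTCD1 and NDUFA7 were among the lowest in both, with MT-ND2 against siCENPF and MT-ATP8 (-0.20) against siFOXM1. The mitochondrial medians were -0.07 (11 of 13 below 0) and -0.05 (12 of 13 below 0). In the interaction 13 of 13 mitochondrial genes lay below 0 with a median of -0.21, against 44 of 78 and -0.02 for the nuclear genes. This list value was not tested, and it moved between -0.42 and -0.00369 (mitochondrial minus nuclear median) when single libraries were left out.

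Respiratory chain mRNAs did differ between the library numbers. The labels do not say what a number stands for. Comparing numbers over the 4 groups, with the group kept in the fit, 42 of 91 members differed between numbers 1 and 2: of the 13 mitochondrial genes 10 were higher and 1 lower in number 1, and of the 78 nuclear genes 31 were lower. Of all genes 22.2% were called higher and 20.3% lower. The median difference was 0.43 for mitochondrial genes, -0.14 for nuclear genes and -0.00200 for all genes. In reads, mitochondrial mRNAs took 2.32% to 2.54% in number 1, 1.86% to 2.01% in number 2 and 1.73% to 2.12% in number 3. The nuclear members took 0.514% to 0.554%, 0.562% to 0.646% and 0.530% to 0.565%.

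Between numbers 1 and 3 the calls were nearly all mitochondrial: 11 of 13 were higher in number 1 (7.82% of all genes were higher and 5.99% lower), with a median of 0.31, while 1 of 78 nuclear genes, SDHA, was lower and the nuclear median was 0.012. Between numbers 2 and 3, 35 of 78 nuclear genes were higher in number 2 and 1, SDHA, lower (16.2% and 17.3% of all genes), with a nuclear median of 0.14. The mitochondrial genes split, 5 higher and 2 lower, with a median of -0.10. The 3 contrasts share libraries, so they are given side by side and are not independent of each other. The number 3 libraries were also the deepest, with 17018969 to 35411230 reads in genes against 13671250 to 16079871 in number 1 and 13681255 to 15801838 in number 2. The epithelial keratins moved with the numbers too: all 3 measured were lower in number 1 than in number 2, KRT7 by -1.24, KRT8 by -0.49 and KRT18 by -0.30. Of 5 retinal pigment epithelium markers measured, 2 were called higher in number 1 than in number 2, BEST1 (0.71) and MITF (0.29). The same 2 were lower in number 2 than in number 3 (-0.45 and -0.50). These markers did not move as a whole. BEST1 ran from 26.9 to 62.4 FPKM and MITF from 0.721 to 1.28. Exon overlap with other genes was not checked for these markers. By FPKM, OTX2 stood at 0.16, 0.25, 0.42 and 0.41 in number 1 (siNeg, siCENPF, siFOXM1 and both). In number 2 it stood at 0.42, 0.42, 0.49 and 0.40, and PMEL overlapped between these numbers. The part of depth or of cell state in these results was not tested. In bulk RNA, a difference in every cell and a larger one in a fraction of the cells cannot be told apart.

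**Figure D4:**
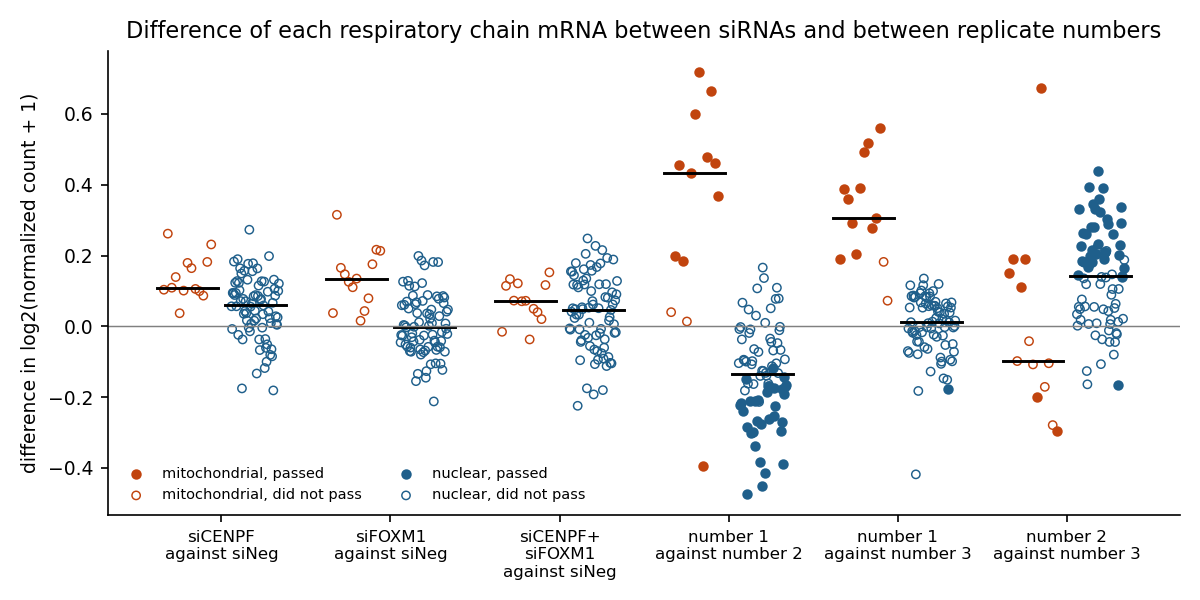
Difference in log2(normalized count + 1) of each of the 91 mRNAs (mitochondrial in orange, nuclear in blue) with each siRNA against siNeg and between library numbers; filled points passed limma at an adjusted p below 0.05, open points did not, and black lines are medians. Points of the siRNA comparisons are filled by the fit without the library number, and those between numbers by the fit that holds it. No point is filled in the siRNA comparisons. With the number as a block, 2 mitochondrial genes passed with siCENPF and 3 with siFOXM1. Between numbers 1 and 2 the mitochondrial median lies at 0.43 and the nuclear one at -0.14.

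The mitochondrial genes differed in size among themselves. MT-ND2 (ENSG00000198763, chrM:4470-5511), a proton-pumping subunit of complex I, stood at 30506, 35980, 30806 and 27730 in the number 1 libraries of siNeg, siCENPF, siFOXM1 and both, and at 19537, 18944, 18199 and 18974 in the number 2 libraries. The numbers did not overlap, and the difference was 0.72 (SE 0.050; limma adjusted p = 3.84e-11). MT-ND4L (0.66), MT-ND1 (0.60), MT-ND4 (0.48), MT-ND5 (0.46), MT-CO1 (0.46), MT-CYB (0.43) and MT-ND6 (0.37) followed, all called. MT-ATP8 (0.20) and MT-CO2 (0.18) were called with smaller differences, and MT-ATP6 (0.040) and MT-CO3 (0.014) did not pass.

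MT-ND3 went the other way. This complex I subunit (ENSG00000198840, chrM:10059-10404) stood at 9089, 9283, 8841 and 9306 in number 1 (siNeg, siCENPF, siFOXM1 and both), at 11183, 13163, 11556 and 12139 in number 2, and at 7305, 7570, 7952 and 7287 in number 3. The 3 numbers did not overlap. It was lower in number 1 than in number 2 by -0.39 (adjusted p = 1.03e-07) and higher than in number 3 by 0.28 (0.000104), and number 2 exceeded number 3 by 0.67 (2.46e-11), the largest difference of a member in that contrast. MT-ND3 was thus highest in number 2, where the nuclear subunits were also higher.

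MT-ND3 is also the shortest of the mitochondrial mRNAs, 346 bases, when joined genes are given the length of their shared mRNA. The genes MT-ATP8 and MT-ND4L have shorter annotated spans, 207 and 297 bases. Their differences between numbers 1 and 2 were 0.20 and 0.66. Over the 13 genes, the difference between numbers 1 and 2 went with the annotated length (Spearman's rho 0.738, as a description across genes, which are not independent). The joined genes carry the length of their shared mRNA, 842 and 1668 bases, and the other genes their annotated span, which may differ from the full mRNA. The difference between numbers 2 and 3 went the other way (-0.485). Over 14306 genes outside the list, the same rho were 0.105 and -0.104. The median difference between numbers 1 and 2 for those genes ran from -0.058 under 750 bases of transcript to 0.045 at 4000 bases and over. The nuclear members are short, with a median length of 945 bases against 2642 for all genes. Their own medians were -0.16 under 750 bases, -0.16 from 750, -0.18 from 1000 and -0.093 from 2000 bases, below the other genes of those lengths (-0.058, -0.048, -0.037 and 0.0054), and 0.047 over 7 genes of 4000 bases and more. The part of length in these differences was not tested.

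**Figure D5:**
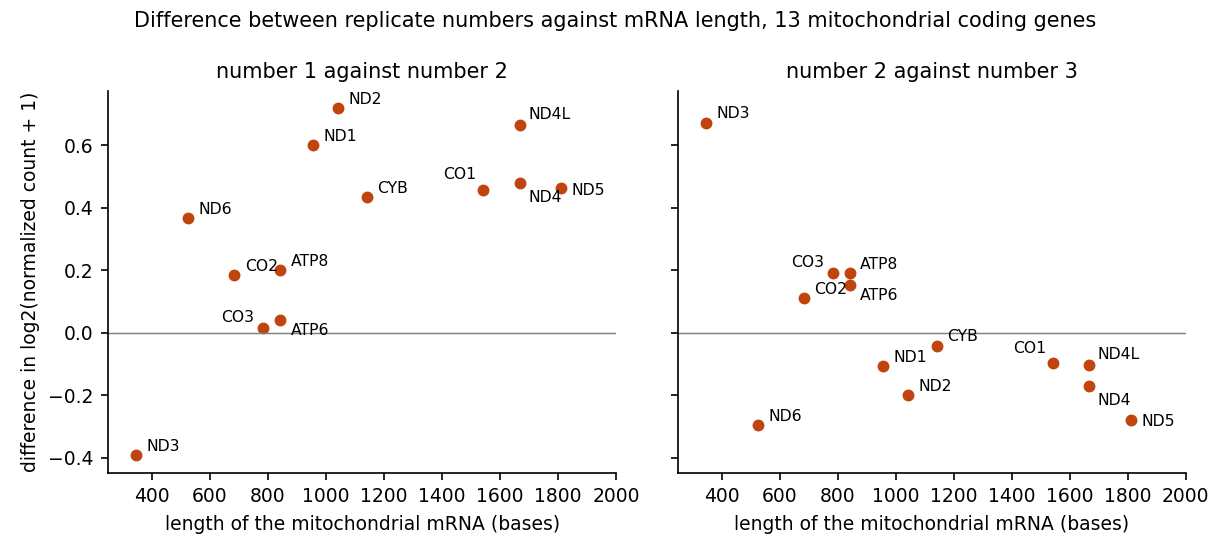
Difference in log2(normalized count + 1) between library numbers against the annotated length of the mRNA in bases for the 13 mitochondrial coding genes (labels without MT-). Between numbers 1 and 2 (left) MT-ND3, at 346 bases, lies at -0.39 and MT-ND2, at 1042 bases, at 0.72; between numbers 2 and 3 (right) MT-ND3 lies at 0.67.

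Other mitochondrial RNAs were split as well. MT-RNR1, the small ribosomal RNA, was higher in number 1 than in number 2 by 0.50 (adjusted p = 6.58e-09), and MT-RNR2, the large one, by 0.05 (0.358). MT-RNR1 had 6834, 4399 and 6219 counts in siNeg, 7926, 5202 and 7254 under siCENPF, 7106, 5128 and 6856 under siFOXM1 and 7098, 5839 and 7504 under both. It was lowest in number 2 in every group. Both ribosomal RNAs were called higher with the block in siCENPF and with both siRNAs, 1 of 2 was with siFOXM1, and 0 were in any siRNA comparison without it. Ribosomal RNA carries short tails and is not fully held by polyA selection, so its level here depends on that step.

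Among nuclear subunits, the shares called were highest in complexes III and IV. Between numbers 1 and 2, 12 of 36 complex I genes, 1 of 4 of complex II, 6 of 8 of complex III, 6 of 12 of complex IV and 6 of 18 of complex V were lower in number 1. Of all genes 20.3% were lower, a share close to that of complex II. Between numbers 2 and 3, 12, 1, 6, 9 and 7 were higher in number 2, beside 16.2% of all genes. The differences between complexes were not tested. In complex I, NDUFA5 (-0.45), NDUFB1 (-0.41) and NDUFA2 (-0.38) had the largest differences between numbers 1 and 2; all are accessory subunits. NDUFA2 (chr5:140638740-140647785) stood at 525, 514, 519 and 540 in number 1, at 529, 795, 690 and 752 in number 2, and at 497, 467, 569 and 488 in number 3. Its siNeg library of number 2 stood with number 1, and the other 3 number 2 libraries stood above all others.

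In complex II, SDHD, a membrane anchor, was lower in number 1 than in number 2 by -0.30 (adjusted p = 0.00225). SDHA, which oxidizes succinate, moved apart from the other members: it stood at 2349, 2154, 2348 and 2219 in number 3 and was lower in number 1 by -0.18 (0.0118) and in number 2 by -0.17 (0.00782). SDHB and SDHC did not pass in any contrast between numbers. In complex III, UQCRB, which helps form the ubiquinone site, differed by -0.39 between numbers 1 and 2 (0.00357), and UQCR11 by -0.27 (0.00334). In complex IV, COX5B (ENSG00000135940, chr2:97646040-97648383), a structural subunit, stood at 1014, 992, 1043 and 1055 in number 1, at 1120, 1367, 1272 and 1307 in number 2 and at 1000, 902, 1026 and 922 in number 3. Number 2 was above both others in every group, by 0.30 and 0.39 (adjusted p = 0.000383 and 2.47e-05). COX7C (-0.34), COX6C (-0.30), NDUFA4 (-0.28) and COX7B (-0.21) were also lower in number 1 than in number 2. In complex V, ATP5E, the epsilon subunit, was higher in number 2 than in number 3 by 0.33 (0.000331), and ATP5B was not called in any contrast between numbers.

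The nuclear pattern was not even over the siRNA groups. The median nuclear difference between numbers 1 and 2 was -0.00532 in siNeg (37 of 78 above 0), -0.28 in siCENPF (3 of 78), -0.14 in siFOXM1 (21 of 78) and -0.09 with both (21 of 78). Between numbers 2 and 3 it was -0.05 in siNeg and 0.29, 0.11 and 0.20 in the others. Each of these values compares a single pair of libraries, so how far the groups differ in it cannot be tested. The mitochondrial difference between numbers 1 and 2 was 0.27, 0.64, 0.45 and 0.33 in the 4 groups, above 0 in each, and that between numbers 1 and 3 was 0.43, 0.33, 0.22 and 0.26.
Single libraries weighed on the nuclear counts. Of the nuclear genes lower in number 1 than in number 2, 18 in place of 31 were called without siCENPF 2 and 19 without library 2 of both siRNAs. Of those higher in number 2 than in number 3, 16 in place of 35 were called without siCENPF 2, 15 without siCENPF 3, 22 without siFOXM1 2 and 19 without library 3 of both siRNAs. The mitochondrial calls between numbers 1 and 2 stayed at 9 or 10 higher and 1 lower in each of these fits, and those between numbers 2 and 3 turned from 5 higher and 2 lower to 3 higher and 6 lower without siNeg 2 or without siNeg 3.

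Nuclear regulators of respiratory genes were read beside them. NRF1, the ETS factor GABPA with its partner GABPB1, and YY1 are known to bind promoters of respiratory genes. Of 6 measured regulators 0 were called with any siRNA without the block or with it. Between numbers 1 and 2 all 6 were called, 2 higher in number 1, PPRC1 (0.55) and ESRRA (0.37), and 4 lower, among them GABPA (-0.25) and YY1 (-0.22). In this contrast 22.2% of all genes were called higher and 20.3% lower. Promoters of 63 of the 78 nuclear members were found in the RefSeq table (GRCh38.p14, 250 bases before to 50 after the start). The letters TGCGCATGC, the NRF1 motif, occurred on either strand in 7 of 63 (11.1%), against 1.56% of 35116 promoters. CCGGAAGT, the ETS motif, occurred in 9 of 63 (14.3%, against 4.14%), and AAGATGGCG, the YY1 motif, in 8 of 63 (12.7%, against 1.75%). To show where the NRF1 letters lie, 3 of the 7 windows are printed on the gene's strand with the motif in capitals, 2 from genes called lower in number 1 than in number 2 and 1 from a gene that was not.
COX5B, chr2:97645911-97645949, plus strand: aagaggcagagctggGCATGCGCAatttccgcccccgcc
SDHD, chr11:112086747-112086785, plus strand: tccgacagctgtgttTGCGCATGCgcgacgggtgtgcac
NDUFS6, chr5:1801345-1801383, plus strand: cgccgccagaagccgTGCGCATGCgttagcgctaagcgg
In COX5B the motif is on the other strand. COX5B differed by -0.30 and SDHD by -0.30 between numbers 1 and 2, and NDUFS6, a subunit of complex I, by 0.08 (limma adjusted p = 0.353). Of the 7 genes with the motif, COX5B, SDHD and NDUFB4 were called and NDUFA8, NDUFA6, COX6A1 and NDUFS6 were not. That share was close to the one over all nuclear members, 31 of 78. A match shows only that these letters occur in the window.

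Other mitochondrial gene groups were read in the same contrasts, beside 22.2% of all genes higher and 20.3% lower in number 1 than in number 2. None of the 8 lists below had a member called with any siRNA by limma without the block, and with it at most 3 genes of a list were. Between numbers 1 and 2, protein import had 9 of 17 genes higher and 1 lower in number 1 (median 0.13), led by HSPA9, the matrix chaperone (0.45), and TOMM40, the outer membrane pore (0.31). The citric acid cycle had 6 of 13 higher and 3 lower (median 0.12), with CS, citrate synthase, at 0.40. Mitochondrial RNA processing and stability had 7 of 16 higher and 1 lower (median 0.14), with PNPT1, an RNA-degrading phosphorylase, at 1.11 and its partner SUPV3L1, a helicase, at 0.40. The medians of these 3 lists lay above 0 and that of the nuclear respiratory genes at -0.14; the difference between lists was not tested.
The mitochondrial ribosome had 9 of 75 higher and 11 lower (median 0.03), with MRPS2 at 0.39 and MRPS14 at -0.47. Assembly factors of complex I had 2 of 13 higher and 3 lower (median -0.074), with NDUFAF4 at 0.40 and NDUFAF3 at -0.20. Those of complexes II to V had 8 of 31 higher and 4 lower (median 0.020), with COA7 at 0.44 and COA5 at -0.66. Replication and transcription of mitochondrial DNA had 2 of 9 higher, C10orf2, the Twinkle helicase (0.39), and POLG, the DNA polymerase (0.15), with a median of 0.065. In these last 3 lists the shares called higher were close to or below that of all genes. Of 4 subunits and carriers outside the rule, CYCS, cytochrome c, was higher (0.20) and ATPIF1, the ATP synthase inhibitor, lower (-0.22). TFAM, which packages and transcribes mitochondrial DNA, was not called between numbers 1 and 2 (-0.09, adjusted p = 0.216), and with siFOXM1 it stood at -0.42 (limma adjusted p = 0.153 without and 0.000136 with the block).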

How the data were processed

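PolyA RNA of 12 libraries was compared. The submitters' processing notes name bcl2fastq, Trimmomatic, TopHat and edgeR with hg38. The authors deposited normalized counts (a signal scaled to like library sums; 14862 genes), FPKM (60279 genes), and edgeR tables with CPM, log2 fold change, a likelihood ratio score and p-value, per the file headers. Whole reads were recovered from the deposited CPM (100% of values within 0.01 reads) to give depth and for count tests.

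The 14857 genes that reached 10 normalized counts in 3 or more libraries were tested on log2(normalized count + 1), a scale that understates changes of low genes, with limma 3.58.1 (R 4.3.3, trend and robust): 12 libraries, 4 group means, two-sided, Benjamini-Hochberg over all genes, threshold 0.05. Contrasts between numbers also held the number. The labels' numbers pair libraries: deviations from group means correlated at 0.272 to 0.639 in 18 pairs of the same number and at -0.510 to 0.0248 in 36 of other numbers, so fits with the number as a block stand beside results they change. Alternatives were edgeR 4.0.16 (on 14555 genes) and DESeq2 1.42.0, FPKM, pseudocount 5, other scalings, filters and libraries. The limma fits of siCENPF and of siFOXM1 against siNeg, with and without the block, were checked on simulated data. The other contrasts, edgeR and DESeq2 were not. Lengths and overlaps came from GENCODE v29.

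Members and lists were chosen with earlier results of these data known. Named were all mitochondrial genes, the members past the threshold or with the 3 largest differences each way (10 where over 20 passed), the highest and lowest per complex, isoform groups and the leading genes of each list.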

Additional observations from a re-analysis of the deposited data

Results flagged for a closer look

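MT-ATP8 was singled out by the interaction test, which asks whether the 2 siRNAs add up when given together. That test does not compare siCENPF with siFOXM1. In the fit with the library number as a block, the interaction of the 2 siRNAs was -0.46 (SE 0.0877, limma adjusted p = 0.00585): siCENPF alone stood 0.26 and siFOXM1 alone 0.32 above siNeg, and both together less than their sum. The same value without the block had an adjusted p of 1.00. The difference of both siRNAs from siNeg was above 0 in 2 of 3 numbers. MT-ATP8 shares 46 bases with MT-ATP6, and what the overlap adds to the value was not tested. The call was lost without siFOXM1 2 (adjusted p = 0.0501) or siFOXM1 3 (0.0606).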

How the results depend on the processing

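The number of respiratory chain members called with an siRNA depended on the replicate block. It stayed at 0 in each of the 6 siRNA comparisons under all alternatives without the block that could be run, leaving out each library included (20 for the interaction, 21 for each other comparison counting the reported fit). With the block it was 2 for siCENPF, 3 for siFOXM1 and 1 for the interaction, and with edgeR and the block 2, 2 and 1; it was 0 for the other 3 comparisons by both. Leaving out single libraries with the block, chosen after seeing the data like edgeR with the block, gave 0 to 7 for siCENPF (7 without siCENPF 2, 5 without siNeg 3, 0 without siCENPF 1 or 3), 1 to 6 for siFOXM1 and 0 to 4 for the interaction. Without the block, leave-one-out counts ran from 30 to 56 between numbers 1 and 2 (reported 42), 11 to 13 between 1 and 3 (12) and 23 to 52 between 2 and 3 (43), the lowest being 24 without siCENPF 2, 23 without siCENPF 3 and 25 without library 3 of both siRNAs. Other settings gave 37 to 55, 9 to 13 and 31 to 49. The mitochondrial minus nuclear median stayed above 0 between numbers 1 and 2 (0.41 to 0.68) and between 1 and 3 (0.23 to 0.36), and below 0 between 2 and 3 (-0.33 to -0.11). Against siNeg it changed sign with single libraries left out (-0.082 to 0.34 for siCENPF, -0.00496 to 0.27 for siFOXM1, -0.12 to 0.18 for both). Leaving out single libraries turned the sign of differences that were not called: NDUFA7 with both siRNAs against siNeg (-0.61 to 0.093; 0.093 without siNeg 3, 0.038 without library 3 of both), UQCR11 against siCENPF (-0.045 to 0.26; -0.045 without library 2 of both), MT-ND2 against siCENPF (-0.42 to 0.045; 0.045 without siCENPF 1) and NDUFA5 against siFOXM1 (-0.055 to 0.26; -0.055 without library 2 of both). The causes were not tested. Genes of low counts such as NDUFA7 limit what could be seen, as does the number of 3 libraries per group.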
